A study of Mus musculus with 16 samples.

Results

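The 8 genes described here activate, remove, sense or respond to glucocorticoid hormone: the enzymes Hsd11b1 and Hsd11b2, the receptors Nr3c1 and Nr3c2, and the response genes Fkbp5, Tsc22d3, Sgk1 and Per1. They were taken by name, as the probes whose gene name on the array, or current symbol of the probe's accession, was one of these 8. That gave 17 of 41174 probes, all of which passed the filter on dim probes, and 8 of the 24372 genes and unnamed features tested, with the brightest probe standing for each gene. Total RNA of whole ovaries from mice aged 1 year was labelled with the dye Cy3 and hybridised to single-colour Agilent arrays, 4 for each of 4 genotypes. Ex3aERKO ovaries came from mice in which estrogen receptor α (ERα) was knocked out, Ex3bERKO ovaries from mice in which ERβ was knocked out, and Ex3abERKO ovaries from mice lacking both receptors. The control ovaries had 1 allele of each receptor, so they carried a reduced dose of both and were not wild type. All groups shared the age, the organ and the TRIzol extraction, and the study asked what ERα and ERβ do in the transdifferentiation of granulosa cells, the follicle cells that surround the oocyte, in the aged ovary. The labels do not say that the 4 samples of a group were separate animals, so p-values here reflect how far the samples at hand scatter, possibly for technical reasons alone.

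Glucocorticoid action in a tissue is set locally as well as by the hormone in blood. Hsd11b1, in the lumen of the endoplasmic reticulum, regenerates active corticosterone from its inert 11-keto form with NADPH that H6pd supplies there, and Hsd11b2 does the reverse, which shields the mineralocorticoid receptor Nr3c2 from glucocorticoid in aldosterone target cells. The glucocorticoid receptor Nr3c1 waits in an Hsp90 chaperone complex, in which Fkbp5 lowers its affinity for hormone, and after binding hormone it acts on response elements near genes such as Fkbp5 itself, Tsc22d3 (GILZ), the kinase Sgk1 and the clock gene Per1. In the human ovary HSD11B1 is known to be induced in granulosa cells as they luteinise after the gonadotropin surge. None of the 4 response genes is driven by this receptor alone: Sgk1 is also induced by gonadotropins and cAMP in rat granulosa cells, and Per1 by the circadian clock.

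Upstream sequence was taken from RefSeq (GRCm38.p6), as the 250 bases before each listed start of transcription. It covered 14 windows of 6 of the genes (1 each for Hsd11b1, Nr3c2 and Fkbp5, 3 for Tsc22d3, 6 for Sgk1 and 2 for Per1). Hsd11b2 and Nr3c1 are named only. The windows were searched on both strands for the half-site of the glucocorticoid receptor AGAACA, the full glucocorticoid response element (AGAACA and its inverted repeat with 3 bases of any kind between), the estrogen response element (GGTCA and its inverted repeat with 3 bases between), the E-box CACGTG that clock factors bind, and TGACG, the half-site of the cAMP response element. The half-site lies within the full glucocorticoid element, so a window that holds the full element counts for both. The 3 windows printed here belong to Sgk1, whose window at chr10:21993640-21993889 (plus strand) held the full element, to Tsc22d3, whose window at chrX:140600523-140600772 (minus strand) held 1 half-site, and to Fkbp5, whose window at chr17:28486150-28486399 (minus strand) held no glucocorticoid motif but an E-box. They are shown because each of these 3 response genes was called in some comparison and each window held a named motif. Each is printed 5′ to 3′ with the named motif in capitals. The Sgk1 window also held an E-box and a further half-site outside the full element, which are left in lower case.
Sgk1: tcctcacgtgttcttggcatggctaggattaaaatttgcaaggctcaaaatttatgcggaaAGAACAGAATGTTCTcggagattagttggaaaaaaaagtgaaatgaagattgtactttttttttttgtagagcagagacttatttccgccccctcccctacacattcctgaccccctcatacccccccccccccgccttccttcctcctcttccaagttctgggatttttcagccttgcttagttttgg
Tsc22d3: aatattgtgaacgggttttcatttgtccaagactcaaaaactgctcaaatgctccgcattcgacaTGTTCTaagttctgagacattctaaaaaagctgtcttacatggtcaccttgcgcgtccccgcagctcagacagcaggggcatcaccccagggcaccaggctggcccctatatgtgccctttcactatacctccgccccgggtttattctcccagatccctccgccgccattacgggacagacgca
Fkbp5: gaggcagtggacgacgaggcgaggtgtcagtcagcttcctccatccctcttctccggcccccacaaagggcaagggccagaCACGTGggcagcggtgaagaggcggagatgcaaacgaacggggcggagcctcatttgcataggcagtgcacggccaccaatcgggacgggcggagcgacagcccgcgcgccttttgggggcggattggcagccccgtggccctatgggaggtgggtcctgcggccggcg
The Sgk1 element starts 189 bases before the start, the Tsc22d3 half-site 185 bases before it, and the Fkbp5 E-box 169 bases before it. The full element was found in 3 of 32851 windows of all genes (0.00913%), and 1 of the 14 windows here was among them. The half-site was in 4 of the 14 windows against 16.1% of all windows, the E-box in 3 of 14 against 6.02%, and the cAMP half-site in 4 of 14 against 17.8%. The estrogen response element was in 0 of the 14 windows and 0.0639% of all windows. A match of letters is a description of the window, and no binding was measured.

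Calls depended on the probe for Fkbp5, Nr3c1 and Tsc22d3, as given below, and Hsd11b2 rested on a single probe. The sequences of the most distant Fkbp5 probe and of the Hsd11b2 probe are given. Fkbp5 was read by 3 probes on the minus strand of chromosome 17 (mm7, the build of the array files): the brightest at chr17:26586393-26586452, another at chr17:26587108-26587167, 0.72 kb from it, and the last at chr17:26624510-26624569, 38.12 kb from it. Hsd11b2 was read by a single probe, whose 60 bases map to pieces of chr8:104121524-104121741 (plus strand). Both are printed as on the array, in lower case since no part of them is singled out.
Fkbp5, probe 38.12 kb away: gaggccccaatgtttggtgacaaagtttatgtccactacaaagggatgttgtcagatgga
Hsd11b2: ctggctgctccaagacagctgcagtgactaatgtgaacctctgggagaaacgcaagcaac
The other single probes lay at chr1:192774594-192774653 for Hsd11b1 (minus strand), chr10:21732425-21732484 for Sgk1 (plus strand) and chr11:69190950-69191009 for Per1 (plus strand). Nr3c1 was read by 4 probes, Nr3c2 by 3 on chromosome 8 and Tsc22d3 by 3 on chromosome X. Exons and untranslated regions are not given, as no genome of that build was used.

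Levels are log2 of a probe's signal divided by the 75th percentile of its array, which was 1211 to 1806 signal units. A value of 0 is thus a signal equal to that percentile, levels are compared only within a probe, and the number of arrays limits the precision. Between 80.4% and 87.6% of an array's spots were well above background. The 8 probes that stand for the genes were well above background on all 16 arrays. Of the targeted receptors, the Esr1 (ERα) level was -3.66 to -1.89 in Ex3aERKO, -1.06 to 0.34 in Ex3bERKO, -2.11 to -1.04 in Ex3abERKO and -0.32 to 0.20 in control ovaries, and it was called lower in Ex3aERKO and Ex3abERKO ovaries. The Esr2 (ERβ) level was -1.07 to 1.58, -0.58 to 1.00, -2.54 to -1.61 and -0.33 to 0.34 in the same order of groups, and it was called lower in Ex3abERKO ovaries (limma adjusted p = 0.0131) but not in Ex3bERKO ovaries (adjusted p = 0.913). As the labels leave out where in Esr1 and Esr2 the deletions lie, these probes may be outside them and do not check the labels. A difference was called at a limma p below 0.05 after Benjamini-Hochberg adjustment over all 24372 features. These are bulk samples, in which fewer cells of a type and less RNA per cell cannot be told apart.

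Hsd11b1 rose and Fkbp5 fell in the ovaries without ERα, whether or not ERβ was present, and Fkbp5 also fell with the loss of ERβ alone. In Ex3abERKO ovaries 5 of the 8 genes were called, 3 higher (Hsd11b1, Tsc22d3, Nr3c1) and 2 lower (Fkbp5, Hsd11b2), where 22.3% of all features were called (10.6% higher and 11.7% lower). In Ex3aERKO ovaries 3 of 8 were called, Hsd11b1 higher and Fkbp5 and Sgk1 lower, where 8.05% of all features were called (3.84% higher and 4.2% lower). In Ex3bERKO ovaries 2 of 8 were called, Fkbp5 and Sgk1, both lower, where 1.04% of all features were called (0.39% higher and 0.648% lower). These shares are also the background for the counts against control of related genes and cell type markers given below. The median log2 difference from control over the 8 genes was 0.29 in Ex3aERKO, 0.05 in Ex3bERKO and -0.21 in Ex3abERKO ovaries, and over all features it was -0.08, 0.01 and -0.11 in the same order. Genes whose arrays did not overlap the control arrays numbered 5 of 8 in Ex3aERKO, 2 of 8 in Ex3bERKO and 6 of 8 in Ex3abERKO ovaries, where 16.9%, 7.99% and 24.9% of all features did not overlap. The 3 comparisons share the 4 control arrays, so they are not independent of one another. The levels on every array are plotted next, followed by the differences from control.

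**Figure D1:**
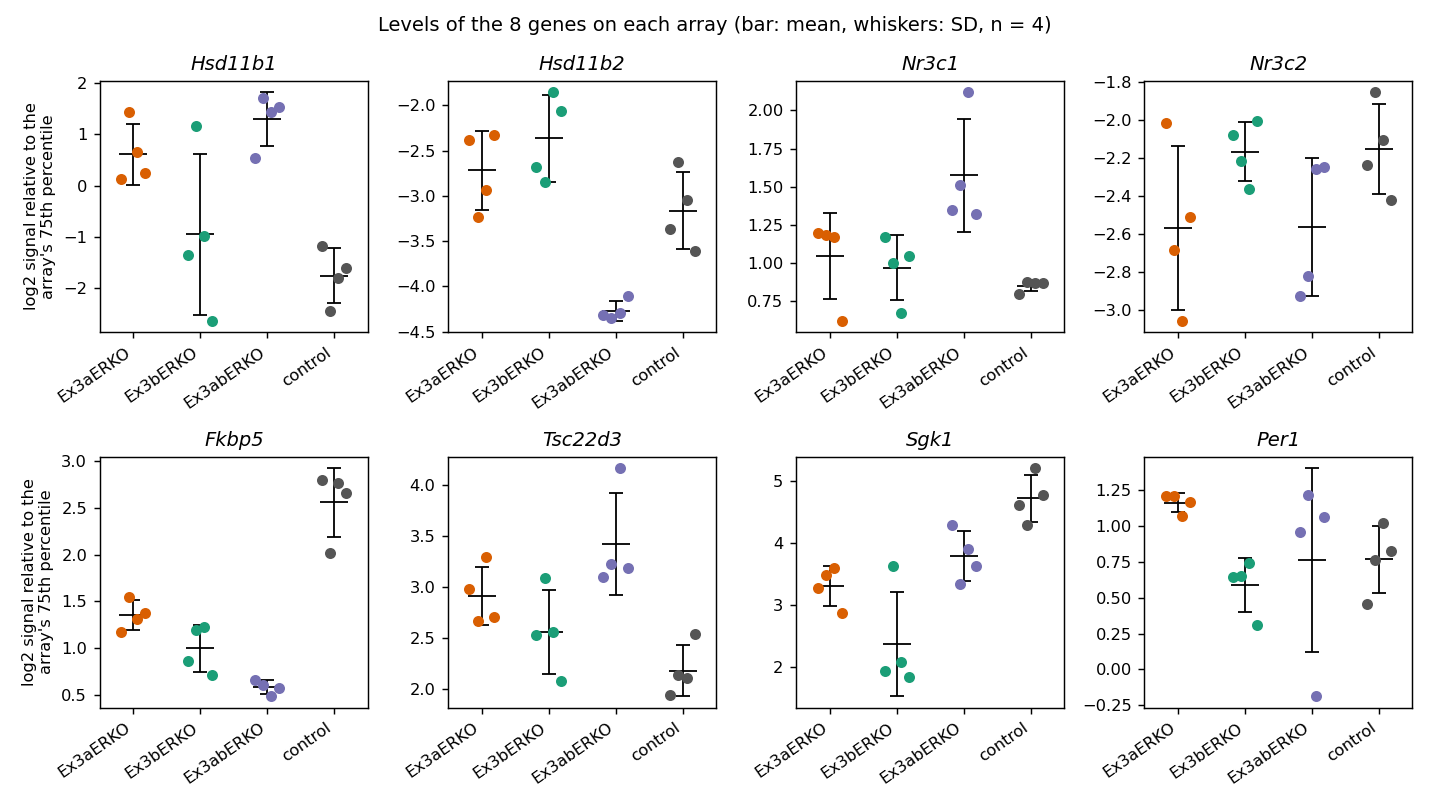
Level of each of the 8 genes (log2 signal relative to the array's 75th percentile, vertical axis) on the 16 arrays, by genotype, with a point per array, the mean as a bar and the SD as whiskers (n = 4). All 4 Ex3abERKO and all 4 Ex3aERKO points of Hsd11b1 lie above all 4 control points, all 12 knockout points of Fkbp5 lie below the control points, and the Ex3abERKO points of Hsd11b2 lie below every other array.

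**Figure D2:**
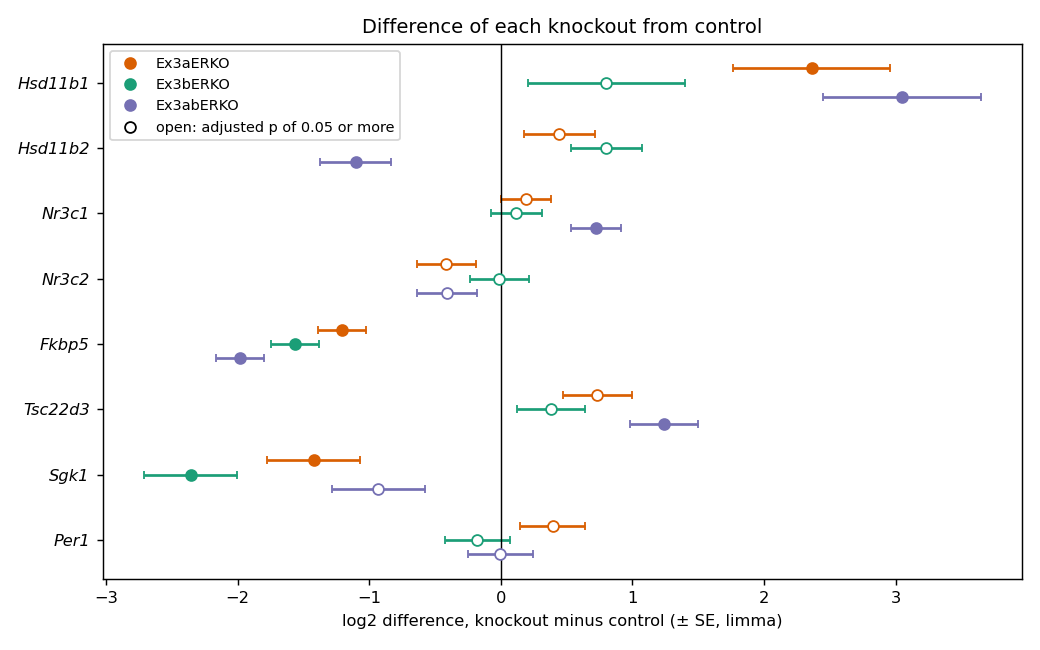
Log2 difference of each knockout from control for the 8 genes (horizontal axis, limma estimate with its SE as whiskers, n = 4 arrays a group). Hsd11b1 reaches 3.05 in Ex3abERKO ovaries, Fkbp5 lies between -1.98 and -1.21 in the 3 knockouts, and the Sgk1 difference is farthest from 0 in Ex3bERKO ovaries at -2.36.

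Hsd11b1, the activating reductase, was higher without ERα. Its level was 0.12, 1.44, 0.65 and 0.24 on Ex3aERKO arrays 1 to 4, and 0.54, 1.70, 1.43 and 1.52 on Ex3abERKO arrays 1 to 4. It was -1.35, 1.16, -0.97 and -2.63 on Ex3bERKO arrays 1 to 4, and -1.17, -2.44, -1.79 and -1.60 on control arrays 1 to 4. Every Ex3aERKO and Ex3abERKO array exceeded every control array, while the Ex3bERKO arrays ran from the lowest level of all 16 to a level above 3 of the Ex3aERKO arrays. The difference from control was 2.36 ± 0.60 in Ex3aERKO ovaries (SE, 5.14-fold, adjusted p = 0.0251, 95% interval 1.08 to 3.64) and 3.05 ± 0.60 in Ex3abERKO ovaries (8.26-fold, adjusted p = 0.00243). In Ex3bERKO ovaries it was 0.80 ± 0.60 with a 95% interval of -0.48 to 2.08 (adjusted p = 0.794), an interval that holds no change as well as a rise of several fold. Within slides, which each hold 1 scan session, Ex3aERKO minus control was 2.03 to 2.60 on 4 slides and Ex3abERKO minus control 2.59 to 3.31 on the 3 slides that hold both. The Ex3aERKO call was lost without any 1 of 5 arrays (control 2, 3 or 4, Ex3aERKO 2 or 3; adjusted p 0.0543 to 0.0873) and with normexp background correction (adjusted p = 0.0577), while the value stayed between 2.09 and 2.56 over all single omissions. The Ex3abERKO call held in all 28 alternatives run.

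Macrophage genes moved with Hsd11b1. All 10 macrophage markers on the list (Cd68, Adgre1, Csf1r, Cd14, Fcgr1, Mrc1, Lyz2, C1qa, C1qb and Ctss) were measured, and 2 were called higher in Ex3aERKO, 0 in Ex3bERKO and 9 in Ex3abERKO ovaries. Their summed signal, in units of the array's 75th percentile, was 322 to 455 in Ex3aERKO, 253 to 403 in Ex3bERKO, 531 to 564 in Ex3abERKO and 193 to 301 in control ovaries. All macrophage and adipocyte markers were well above background on all 16 arrays, so none was at 0. The sum of 8 adipocyte markers was 11.4 to 42.9, 13.1 to 39.3, 52.6 to 99.3 and 15.1 to 32.3 in the same order, with 1 marker called higher and 1 lower in Ex3abERKO ovaries and 3 lower in Ex3aERKO ovaries. Most of this sum was the signal of Fabp4 alone, whose log2 level was 3.32 to 5.35, 2.89 to 5.09, 5.52 to 6.58 and 3.59 to 4.44. Of 8 liver markers 6 were measured, and their sum was 12.3 to 157, 3.38 to 20.4, 19.2 to 25.0 and 2.89 to 3.42, with 2 called higher in each of Ex3aERKO and Ex3abERKO ovaries. The liver markers did not move together in Ex3abERKO ovaries. Trf was 3.70 to 3.91 there against 1.18 to 1.44 in control ovaries, and Ahsg 2.17 to 3.57 against -1.33 to -0.13. Apoa1 went the other way, with -4.67 to -3.90 against -2.51 to -1.99, and was not called. The liver marker Ttr was well above background on 2 Ex3aERKO arrays and no other array. Hsd11b1 is expressed in all 3 of these cell types. Markers of other cells changed as well. Of 7 fibroblast markers, 4 were called higher and 1 lower in Ex3abERKO ovaries, and 1 each way in Ex3aERKO ovaries. Their lowest Ex3abERKO sum (220) lay above the highest control sum (180). Of 8 theca and Leydig cell markers, Ex3aERKO ovaries had 3 called higher and 2 lower, and Ex3abERKO ovaries 2 higher and 4 lower. Among these, Insl3 was at least 6.49 on Ex3aERKO arrays and at most -0.02 on control arrays. The part of all these cell types in the result was not tested. Ex3bERKO 2, the array of its group with the highest Hsd11b1 level, also had the highest macrophage (402.5), adipocyte (39.34) and liver (20.4) sums of its group. Its adipocyte sum was mainly Fabp4 (log2 level 5.09). Other adipocyte markers were highest on Ex3bERKO 1 instead, such as Adipoq (0.37 against -1.43 on Ex3bERKO 2), Cfd (3.14 against 0.92), Retn and Cidec. Ex3aERKO 2, the array of its group with the highest Hsd11b1 level, had the group's highest Trf (4.5), Ahsg (4.54) and Apoa1 (1.08) levels. The macrophage markers Cd68, Mrc1, Ctss, Adgre1 and Cd14 were highest on Ex3aERKO 3 instead.

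H6pd, the hexose-6-phosphate dehydrogenase that provides NADPH to Hsd11b1, was higher in the same 2 genotypes. Its level was 3.24, 3.37, 3.37 and 2.74 on Ex3aERKO arrays, 2.02, 3.13, 3.22 and 2.24 on Ex3bERKO arrays, 3.67, 3.57, 3.49 and 3.55 on Ex3abERKO arrays, and 1.85, 2.07, 2.13 and 2.23 on control arrays. All Ex3aERKO and Ex3abERKO arrays lay above all control arrays, and the Ex3bERKO arrays overlapped them. H6pd differed from control by 1.11 ± 0.25 in Ex3aERKO (adjusted p = 0.0123), 0.58 ± 0.25 in Ex3bERKO (adjusted p = 0.428) and 1.5 ± 0.25 in Ex3abERKO ovaries (adjusted p = 0.000769). Of the 5 genes listed for cofactor supply, Pgd of the pentose phosphate pathway was the other one called, higher by 0.65 in Ex3abERKO ovaries (adjusted p = 0.0119), and none was called lower in any knockout.

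Hsd11b2, the inactivating dehydrogenase, was lower with both receptors absent and not with either alone. Its level was -4.32, -4.35, -4.29 and -4.11 on Ex3abERKO arrays 1 to 4, and -3.37, -2.63, -3.05 and -3.61 on control arrays 1 to 4. It was -2.38, -3.23, -2.94 and -2.32 on Ex3aERKO arrays and -2.68, -2.85, -1.86 and -2.06 on Ex3bERKO arrays. The Ex3abERKO arrays lay close together and below all 12 others, and the arrays of each single knockout overlapped the control arrays. The difference from control was -1.10 ± 0.27 in Ex3abERKO ovaries (2.15-fold lower, adjusted p = 0.0093), which held in all 28 alternatives. It was 0.45 ± 0.27 in Ex3aERKO (adjusted p = 0.399) and 0.80 ± 0.27 in Ex3bERKO ovaries (adjusted p = 0.249, 95% interval 0.22 to 1.38). Against the single knockouts Hsd11b2 was lower too, with Ex3abERKO minus Ex3aERKO at -1.55 ± 0.27 (adjusted p = 0.00419) and Ex3abERKO minus Ex3bERKO at -1.90 ± 0.27 (adjusted p = 0.000634). The sum of the separate differences of the single knockouts was above 0 and the double knockout was below it: the interaction, (Ex3abERKO minus Ex3aERKO) minus (Ex3bERKO minus control), was -2.35 ± 0.38 (adjusted p = 0.00428). With normexp background correction the interaction was -1.12 and not called (adjusted p = 0.385), and the difference from Ex3aERKO ovaries was not called either (adjusted p = 0.157). Of 5 measured genes that mark the kidney collecting duct, the textbook site of Hsd11b2, 1 was called higher in each of Ex3aERKO and Ex3abERKO ovaries and none lower. Granulosa markers moved with Hsd11b2 in part. Of 10 (Foxl2, Fshr, Cyp19a1, Inha, Inhba, Inhbb, Fst, Nr5a2, Amh and Hsd17b1), 5 were lower in Ex3abERKO than in control ovaries, 7 lower than in Ex3aERKO and 8 lower than in Ex3bERKO ovaries. Relative to control ovaries, 1 was called lower and 1 higher in Ex3aERKO ovaries, and 0 were called in Ex3bERKO ovaries. Their summed signal was 144 to 359 in Ex3aERKO, 116 to 188 in Ex3bERKO, 32.4 to 93.9 in Ex3abERKO and 124 to 235 in control ovaries, and none was at 0. Their part in the result was not tested.

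Within arrays, the level of Hsd11b1 relative to that of Hsd11b2 was higher than in control ovaries in the genotypes without ERα. The log2 level of Hsd11b1 minus that of Hsd11b2 averaged 3.33 ± 1.02 in Ex3aERKO, 1.41 ± 1.91 in Ex3bERKO, 5.56 ± 0.50 in Ex3abERKO and 1.41 ± 0.91 in control ovaries (SD, n = 4 each). As the 2 probes have different brightness, only the change of this quantity is read. It was 4.15 higher in Ex3abERKO than in control ovaries, which follows from both enzymes' levels there. The value in Ex3aERKO ovaries follows in the same way from an Hsd11b1 difference of 2.36 and an Hsd11b2 difference of 0.45. Its test restates those levels and adds no support. This quantity was 1.92 higher in Ex3aERKO than in control ovaries (exact two-sided permutation p = 0.0286, the smallest that 4 against 4 arrays can give, and 0.0429 after Benjamini-Hochberg adjustment over the 9 such tests run), higher on 4 of 4 arrays. In Ex3bERKO ovaries it differed from control by 0.00 (exact p = 1.00), with single arrays from -0.57 to 4.01 against 0.18 to 2.20 in control ovaries, so the spread is too wide to show that the pair was alike.

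Supply of hormone to the enzymes was read from a list of 11 genes for glucocorticoid synthesis, import and export, of which 10 were measured. The list had 1 gene higher and 3 lower in Ex3aERKO ovaries, 0 higher and 2 lower in Ex3bERKO ovaries, and 1 higher and 4 lower in Ex3abERKO ovaries, with median log2 differences of -0.59, -0.41 and -0.56. Serpina6, the corticosteroid-binding globulin that carries hormone in blood, rose by 2.63 in Ex3aERKO (adjusted p = 0.0223) and by 4.09 in Ex3abERKO ovaries (17.0-fold, adjusted p = 0.000624). The liver makes most of this protein. The liver marker sums above rose in the same genotypes, though Apoa1 was lower in Ex3abERKO ovaries, and the part of liver RNA in the result was not tested. Star, which brings cholesterol into mitochondria, fell in all 3 knockouts, with a log2 difference of -1.61 in Ex3aERKO (adjusted p = 0.0385), -2.63 in Ex3bERKO (adjusted p = 0.00949) and -3.15 in Ex3abERKO ovaries (adjusted p = 0.000287). Cyp11a1, the side-chain cleavage enzyme, fell as well, with -1.94 in Ex3aERKO (adjusted p = 0.00216) and -3.48 in Ex3abERKO ovaries (adjusted p = 1.85e-05). Abcb1b, an efflux pump that exports steroids from cells, had 0.69, 0.93, 0.36 and -0.45 on Ex3aERKO arrays, 2.06, 1.08, -0.15 and -0.35 on Ex3bERKO arrays, 2.00, 0.98, 1.46 and 0.68 on Ex3abERKO arrays, and 2.75, 3.43, 4.18 and 4.09 on control arrays. Every knockout array lay below every control array. Abcb1b fell in all 3 knockouts, with differences of -3.23 in Ex3aERKO (adjusted p = 0.0017), -2.95 in Ex3bERKO (adjusted p = 0.0107) and -2.33 in Ex3abERKO ovaries (adjusted p = 0.00476). Star, Cyp11a1 and their partners serve all ovarian steroids, and the adrenal steps differ: Cyp21a1, the 21-hydroxylase that makes the precursors of corticosterone, was well above background on all 16 arrays and differed from control by 0.30, -0.29 and 0.17 in Ex3aERKO, Ex3bERKO and Ex3abERKO ovaries (adjusted p 0.712, 0.908 and 0.785). No probe read Cyp11b1, the last step to corticosterone, and Cyp11b2, the aldosterone synthase, was well above background on 5 of 16 arrays.

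Nr3c1, the glucocorticoid receptor, was higher with both receptors absent. Its level was 1.35, 1.51, 2.12 and 1.32 on Ex3abERKO arrays 1 to 4, and 0.80, 0.88, 0.87 and 0.87 on control arrays 1 to 4. All 4 Ex3abERKO arrays exceeded all 12 other arrays. The difference was 0.72 ± 0.19 (1.65-fold, adjusted p = 0.0146), and within slides it was 0.45 to 1.32. Ex3aERKO arrays had 1.20, 1.19, 1.17 and 0.63, and Ex3bERKO arrays 1.17, 1.00, 0.67 and 1.05, with differences from control of 0.19 ± 0.19 (adjusted p = 0.673) and 0.12 ± 0.19 (adjusted p = 0.956). The arrays of both single knockouts lay on either side of the control levels. Against the single knockouts the difference was 0.60 from Ex3bERKO (adjusted p = 0.0441) and 0.53 from Ex3aERKO ovaries (adjusted p = 0.112). The first of these was called in 8 of 28 alternatives, and was lost without any 1 of the control arrays (adjusted p 0.056 to 0.0592). The call rests on the brightest of 4 probes: the other 3 differed in Ex3abERKO ovaries by 0.49, 0.36 and 0.02 (adjusted p 0.0578, 0.184 and 0.966), and none of these was called. With the mean of all 4 probes in place of the brightest, the difference was not called (adjusted p = 0.0543).

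Nr3c2, the mineralocorticoid receptor, was not called in any comparison. Its level was -2.02, -2.69, -3.06 and -2.51 on Ex3aERKO arrays, -2.08, -2.22, -2.36 and -2.01 on Ex3bERKO arrays, -2.93, -2.82, -2.26 and -2.25 on Ex3abERKO arrays, and -2.24, -1.86, -2.11 and -2.42 on control arrays. Nr3c2 differed from control by -0.41 ± 0.23 in Ex3aERKO (adjusted p = 0.332), -0.01 ± 0.23 in Ex3bERKO (adjusted p = 0.998) and -0.41 ± 0.23 in Ex3abERKO ovaries (adjusted p = 0.223). The arrays of all 4 groups overlapped. The other 2 probes of the gene were dimmer, well above background on 12 and 9 of 16 arrays, and were not called either. On the dimmer of these, 3 Ex3aERKO, 4 Ex3bERKO, 0 Ex3abERKO and 2 control arrays were well above background.

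Among partners of the receptors, the cochaperone Fkbp4 fell in Ex3abERKO ovaries. Of 11 chaperones and cochaperones of the steroid receptor complex, 0 were called in Ex3aERKO or Ex3bERKO ovaries, where the median differences were -0.41 and -0.19. In Ex3abERKO ovaries 22.3% of all features were called in either direction, close to the share of this list, and 11.7% were called lower. There 3 of the 11 were lower and 0 higher, with a median of -0.40. They were Fkbp4 (-1.16 ± 0.21, adjusted p = 0.00157), the cochaperone of the same family that opposes Fkbp5 in the receptor complex, the Hsp70-Hsp90 adaptor Stip1 (-0.90, adjusted p = 0.00249) and Bag1 (-0.56, adjusted p = 0.0109), a cofactor of Hsp70. Fkbp4 had 1.49, 0.92, 0.39 and 1.30 on Ex3abERKO arrays against 1.99, 2.30, 2.31 and 2.13 on control arrays, with no overlap. Its interaction was -1.27 ± 0.30 (adjusted p = 0.0319). Hsp90ab1, the constitutive Hsp90, differed from control by -0.44, -0.29 and -0.40 in Ex3aERKO, Ex3bERKO and Ex3abERKO ovaries and was not called (adjusted p 0.0750, 0.551 and 0.0584). Of 10 coregulators, 3 were called in Ex3abERKO ovaries, close to the 22.3% of all features called there, and 0 in the single knockouts. Ncoa3 (0.74, adjusted p = 0.00237) and Ppargc1a (1.21, adjusted p = 0.00755), both coactivators, were higher, and the corepressor Nrip1 was lower (-1.32, adjusted p = 0.00128). Nrip1 is itself a known estrogen target.

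Fkbp5, the cochaperone that restrains the receptor and is itself induced by glucocorticoid, fell in all 3 knockouts. Its level was 1.17, 1.55, 1.31 and 1.38 on Ex3aERKO arrays 1 to 4, 0.86, 1.19, 1.22 and 0.71 on Ex3bERKO arrays, and 0.66, 0.60, 0.48 and 0.57 on Ex3abERKO arrays. It was 2.80, 2.02, 2.76 and 2.66 on control arrays 1 to 4. No knockout array reached the lowest control array, and all 4 Ex3abERKO arrays lay below all arrays of the single knockouts. The difference from control was -1.21 ± 0.18 in Ex3aERKO (2.31-fold lower, adjusted p = 0.00131), -1.57 ± 0.18 in Ex3bERKO (2.96-fold lower, adjusted p = 0.00113) and -1.98 ± 0.18 in Ex3abERKO ovaries (3.95-fold lower, adjusted p = 1.92e-05). Each of these calls held in all 28 alternatives. Within slides the differences were -1.39 to -0.84, -1.61 to -1.23 and -2.32 to -2.03 in the same order. Ex3abERKO minus Ex3aERKO was -0.77 ± 0.18 for Fkbp5 (adjusted p = 0.0187), but this call was lost with the mean of all probes (adjusted p = 0.0696). Relative to Ex3bERKO ovaries the difference was -0.42 ± 0.18 (adjusted p = 0.137). The estimates of the single knockouts added to more than that of the double knockout, with an interaction of 0.79 ± 0.26 that was not called (adjusted p = 0.12).

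The 3 probes of Fkbp5 gave differences of unequal size. The probe 0.72 kb from the brightest differed from control by -1.58 in Ex3aERKO (adjusted p = 0.000649), -1.76 in Ex3bERKO (adjusted p = 0.00138) and -2.19 in Ex3abERKO ovaries (adjusted p = 3.23e-05). The probe 38.12 kb away, whose sequence is given above, differed by -0.75 (adjusted p = 0.104), -0.99 (adjusted p = 0.106) and -0.89 (adjusted p = 0.0263) in the same order, so it was called in Ex3abERKO ovaries alone. The level of this probe minus that of the brightest was 1.10 higher in Ex3abERKO than in control ovaries (exact two-sided permutation p = 0.0286, 0.0429 after adjustment over the 9 tests). In Ex3aERKO and Ex3bERKO ovaries it was 0.46 and 0.58 higher (exact p = 0.114 for each, 0.129 after adjustment).

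**Figure D3:**
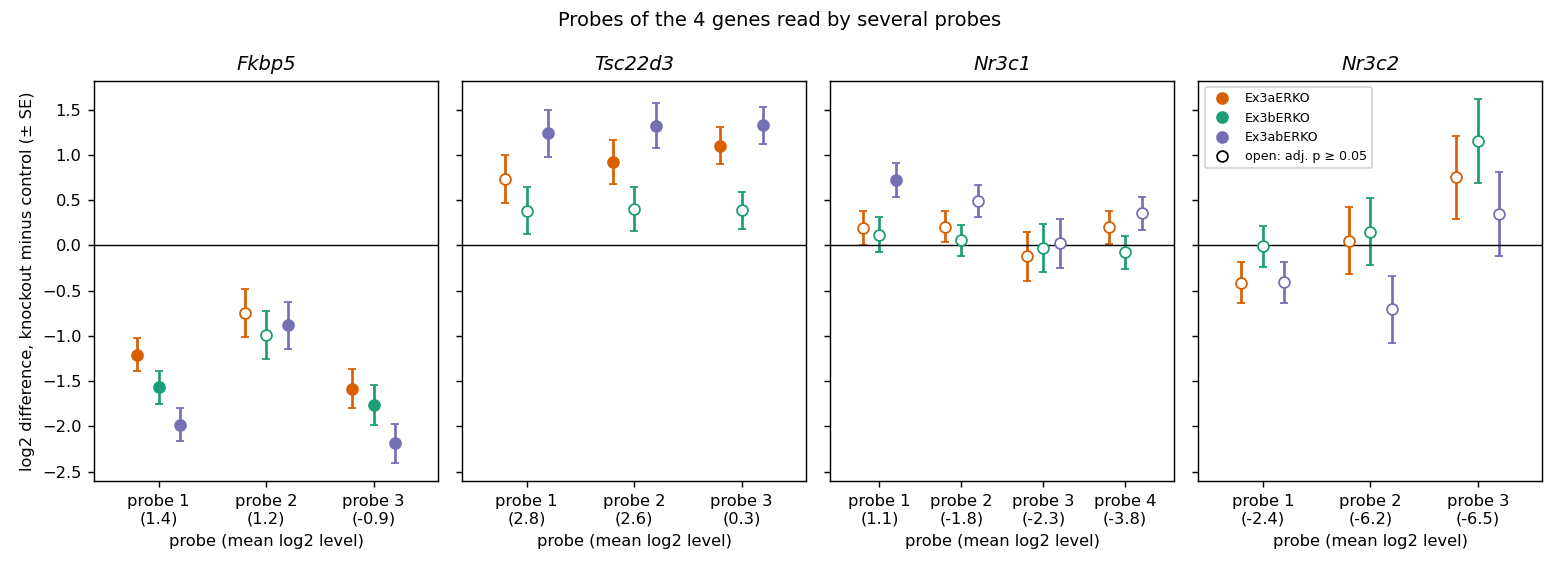
Log2 difference of each knockout from control (vertical axis, limma estimate with its SE, n = 4 arrays a group) for each probe of the 4 genes read by several probes, ordered by mean log2 level, which is given under each probe. The Fkbp5 probes all lie below 0, the distant one closest to it, the Tsc22d3 probes lie above 0 in all 3 knockouts, and the Nr3c1 probes differ in Ex3abERKO ovaries from 0.72 for the brightest to 0.02.

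Tsc22d3, the leucine zipper protein GILZ that carries out part of the anti-inflammatory action of glucocorticoid, was higher in Ex3abERKO ovaries. Its level was 2.98, 2.67, 3.29 and 2.71 on Ex3aERKO arrays 1 to 4, 2.53, 3.09, 2.56 and 2.08 on Ex3bERKO arrays, and 3.1, 3.22, 4.17 and 3.19 on Ex3abERKO arrays. It was 1.94, 2.14, 2.11 and 2.54 on control arrays 1 to 4. All Ex3aERKO and all Ex3abERKO arrays exceeded all control arrays, and the Ex3bERKO arrays overlapped them. The difference from control was 1.24 ± 0.26 in Ex3abERKO ovaries (2.36-fold, adjusted p = 0.00381). It was 0.73 ± 0.26 in Ex3aERKO ovaries, not called with the brightest probe (adjusted p = 0.108, 95% interval 0.17 to 1.29), and 0.38 ± 0.26 in Ex3bERKO ovaries (adjusted p = 0.751). Both other probes, within 0.68 kb of it, were called higher in Ex3aERKO ovaries, by 0.92 (adjusted p = 0.0327) and 1.10 (adjusted p = 0.00446), as well as in Ex3abERKO ovaries, by 1.32 (adjusted p = 0.00168) and 1.33 (adjusted p = 0.000518). In Ex3bERKO ovaries they differed by 0.40 and 0.39 (adjusted p 0.695 and 0.599). Tsc22d3 is abundant in macrophages, whose summed markers are given above, and their part in the result was not tested.

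Fkbp5 and Tsc22d3, both direct targets of the glucocorticoid receptor in many tissues, moved in opposite directions in Ex3abERKO ovaries. The level of Tsc22d3 minus that of Fkbp5 was 1.94 higher in Ex3aERKO, 1.95 higher in Ex3bERKO and 3.22 higher in Ex3abERKO than in control ovaries, higher on 4 of 4 arrays in each. These values restate the levels of the pair above and support nothing further, and in Ex3bERKO ovaries Tsc22d3 itself was not called. Across the 16 arrays the levels of the pair had a Pearson correlation of -0.66, and 0.05 once each group's mean was removed, which describes arrays that share their group and scaling.

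Sgk1, the serum- and glucocorticoid-induced kinase that regulates ion channels and survival, fell in both single knockouts. Its level was 3.27, 3.49, 3.59 and 2.87 on Ex3aERKO arrays 1 to 4, and 1.94, 3.62, 2.08 and 1.84 on Ex3bERKO arrays. It was 4.28, 3.34, 3.91 and 3.63 on Ex3abERKO arrays, and 4.62, 4.30, 5.21 and 4.77 on control arrays 1 to 4. Every knockout array lay below every control array, and Ex3bERKO 2 stood well above the other arrays of its group. Sgk1 differed from control by -1.42 ± 0.35 in Ex3aERKO (2.68-fold lower, adjusted p = 0.0226) and -2.36 ± 0.35 in Ex3bERKO ovaries (5.12-fold lower, adjusted p = 0.00429). Without Ex3bERKO 2 the Ex3bERKO difference was -2.77, and within slides it was -3.13 to -1.0. The Ex3aERKO call was lost without control 3, control 4 or Ex3aERKO 1 (adjusted p 0.0506 to 0.0795) and with normexp (adjusted p = 0.0748), and the Ex3bERKO call was lost when only these 2 groups were fitted (adjusted p = 0.0654). In Ex3abERKO ovaries the difference was -0.93 ± 0.35 (adjusted p = 0.0733, 95% interval -1.69 to -0.18), and 5 of 28 alternatives called it.

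Sgk1 had a mean nearer to control with both receptors absent than with ERβ alone absent. It was 1.42 ± 0.35 higher in Ex3abERKO than in Ex3bERKO ovaries (2.69-fold, adjusted p = 0.0141, with 1 Ex3bERKO array overlapping). That call was lost with slide as a fixed block (1.12, adjusted p = 0.0772), with only these groups fitted (adjusted p = 0.0614) and without Ex3bERKO 4 (adjusted p = 0.0514). Ex3abERKO minus Ex3aERKO was 0.49 and not called (adjusted p = 0.474). The interaction was 2.85 ± 0.50 (adjusted p = 0.00681), and it was called in all 28 alternatives. Luteal markers moved with Sgk1 and Fkbp5 in part. Of 7 (Ptgfr, Prlr, Akr1c18, Sfrp4, Parm1, Rgcc and Hsd17b7), 3 were lower in Ex3aERKO, 1 in Ex3bERKO and 3 in Ex3abERKO ovaries, and their summed signal was 16.3 to 72.9, 18 to 187, 24.1 to 59.6 and 77.3 to 334 in Ex3aERKO, Ex3bERKO, Ex3abERKO and control ovaries. The highest sum of the Ex3bERKO group, 187, was that of Ex3bERKO 2. The markers did not share this: Rgcc (2.25), Hsd17b7 (-0.05) and Prlr (2.95) lay within the range of the group's other arrays. Parm1 (0.57) was the lowest of the group on Ex3bERKO 2, so the high sum came from other markers of the list. The part of luteal tissue in the result was not tested.

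Per1, a clock gene known to have a glucocorticoid response element of its own, was not called in any comparison. Its 2 windows searched above held neither the full element nor the half-site. Its level was 1.20, 1.21, 1.07 and 1.16 on Ex3aERKO arrays 1 to 4, 0.64, 0.65, 0.74 and 0.31 on Ex3bERKO arrays, 0.95, 1.21, -0.19 and 1.06 on Ex3abERKO arrays, and 0.46, 0.76, 1.02 and 0.82 on control arrays. All Ex3aERKO arrays were above all control and all Ex3bERKO arrays, and Ex3abERKO 3 was the lowest of the 16. The difference from control was 0.39 ± 0.25 in Ex3aERKO (adjusted p = 0.423), -0.18 ± 0.25 in Ex3bERKO (adjusted p = 0.94) and -0.00 in Ex3abERKO ovaries (adjusted p = 0.993, 95% interval -0.54 to 0.53). Ex3aERKO minus Ex3bERKO was 0.57 (adjusted p = 0.329). Without Ex3abERKO 3 that difference was called (adjusted p = 0.0417), as was Ex3abERKO minus Ex3bERKO (adjusted p = 0.0328).

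Between the knockouts, 2 of 8 genes were called in Ex3abERKO relative to Ex3aERKO ovaries (Hsd11b2 and Fkbp5, both lower), where 7.73% of all features were called (4.41% higher and 3.32% lower). In Ex3abERKO relative to Ex3bERKO ovaries 5 of 8 were called, where 16.6% of all features were (8.23% higher and 8.41% lower): Hsd11b1 was higher by 2.24 ± 0.60 (4.74-fold, adjusted p = 0.02), Sgk1 as given above, Tsc22d3 by 0.86 ± 0.26 (adjusted p = 0.0367) and Nr3c1 with the limits given above, and Hsd11b2 was lower. The Tsc22d3 call held in 18 of 28 alternatives and the Hsd11b1 call in 23. Ex3aERKO and Ex3bERKO ovaries differed in 0 of 8 by limma, where 2.35% of all features were called (0.648% higher and 1.7% lower). An unadjusted limma p below 0.05 was seen for 3 of the 8 (Hsd11b1, Sgk1 and Per1) and for 3198 of all 24372 features. Leaving out Ex3bERKO 2 raised the called count of this comparison from 0 to 2 and leaving out Ex3abERKO 3 raised it to 1. The interaction called 2 of 8, Hsd11b2 and Sgk1 with opposite signs, where 3.57% of all features were called (1.83% above 0 and 1.74% below). The count for Ex3abERKO against Ex3bERKO ovaries fell to 1 without Ex3bERKO 4, to 2 without Ex3bERKO 1 or Ex3abERKO 2 and to 3 without Ex3bERKO 3. The count for Ex3aERKO against control ovaries fell to 1 without control 3 or control 4.

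Ranked by mean level, the 4 genotypes came in different orders. From high to low, Hsd11b1 ran Ex3abERKO (1.30), Ex3aERKO (0.61), Ex3bERKO (-0.95), control (-1.75), and Tsc22d3 and Nr3c1 had the same order. From low to high, Fkbp5 ran Ex3abERKO (0.58), Ex3bERKO (0.99), Ex3aERKO (1.35), control (2.56), and Sgk1 ran Ex3bERKO (2.37), Ex3aERKO (3.30), Ex3abERKO (3.79), control (4.72). Nr3c2 ran from low to high as Ex3aERKO (-2.57), Ex3abERKO (-2.56), Ex3bERKO (-2.17), control (-2.16). For Hsd11b2 the order from high to low was Ex3bERKO (-2.36), Ex3aERKO (-2.72) and Ex3abERKO (-4.27), with control (-3.16) just above Ex3abERKO. For Per1 it was Ex3aERKO (1.16), Ex3abERKO (0.76) and Ex3bERKO (0.59), with control (0.77) just below Ex3aERKO. Of the neighbours in these 8 orders, 2 pairs were called different: Ex3aERKO and control for Fkbp5, and Ex3abERKO and control for Hsd11b2.

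Other genes known to be induced by glucocorticoid went both ways. Of 24 listed, 22 were measured, and 5 were called higher and 2 lower in Ex3aERKO ovaries, 1 higher and 1 lower in Ex3bERKO ovaries, and 7 higher and 3 lower in Ex3abERKO ovaries, with medians of 0.44, 0.08 and 0.42. Lcn2, the lipocalin of the acute phase and of epithelia, differed from control by 8.48 ± 1.08 in Ex3aERKO (adjusted p = 0.000445) and 5.77 ± 1.08 in Ex3abERKO ovaries (adjusted p = 0.0018). Cebpd, a transcription factor of the acute phase and of early adipogenesis, rose by 1.91 in Ex3aERKO (adjusted p = 0.00319) and 1.92 in Ex3abERKO ovaries (adjusted p = 0.00113). Sult1a1, a phenol sulfotransferase, rose in all 3 knockouts, by 1.59, 1.54 and 1.35 in Ex3aERKO, Ex3bERKO and Ex3abERKO ovaries (adjusted p 0.00151, 0.00677 and 0.00147). Glul, glutamine synthetase, rose by 1.70 in Ex3aERKO ovaries (adjusted p = 0.00549). Among the genes that fell, Angptl4, a lipoprotein lipase inhibitor, fell by 1.10 in Ex3abERKO ovaries (adjusted p = 0.000889) and the MAP kinase phosphatase Dusp1 fell by 1.97 in Ex3bERKO ovaries (adjusted p = 0.0128). The members of the list shared no single direction in any knockout.

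Targets and partners of the mineralocorticoid receptor and of Sgk1 were mostly higher where they were called. Of 13 measured, 3 were higher and 0 lower in Ex3aERKO ovaries, 1 higher and 0 lower in Ex3bERKO ovaries, and 5 higher and 1 lower in Ex3abERKO ovaries, with medians of 0.40, 0.30 and 0.13. Sgk3, the endosomal relative of Sgk1, had -1.02, -1.04, -0.89 and -1.27 on Ex3aERKO arrays, -1.42, -1.19, -1.15 and -1.74 on Ex3bERKO arrays, -1.47, -1.28, -0.75 and -1.16 on Ex3abERKO arrays, and -2.33, -2.55, -2.60 and -2.44 on control arrays. All 12 knockout arrays were above all 4 control arrays, the reverse of Sgk1. Sgk3 rose by 1.42 ± 0.18, 1.10 ± 0.18 and 1.31 ± 0.18 in Ex3aERKO, Ex3bERKO and Ex3abERKO ovaries (adjusted p 0.000403, 0.00677 and 0.000216). The epithelial sodium channel subunits Scnn1a and Scnn1b rose in Ex3aERKO ovaries by 1.17 (adjusted p = 0.00235) and 2.00 (adjusted p = 0.00155), and in Ex3abERKO ovaries by 1.01 (adjusted p = 0.00217) and 1.48 (adjusted p = 0.00369). Scnn1b was well above background on 3 of 4 control arrays. Ndrg1, a substrate of the Sgk kinases, rose by 1.37 in Ex3abERKO ovaries (adjusted p = 0.000591).

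**Figure D4:**
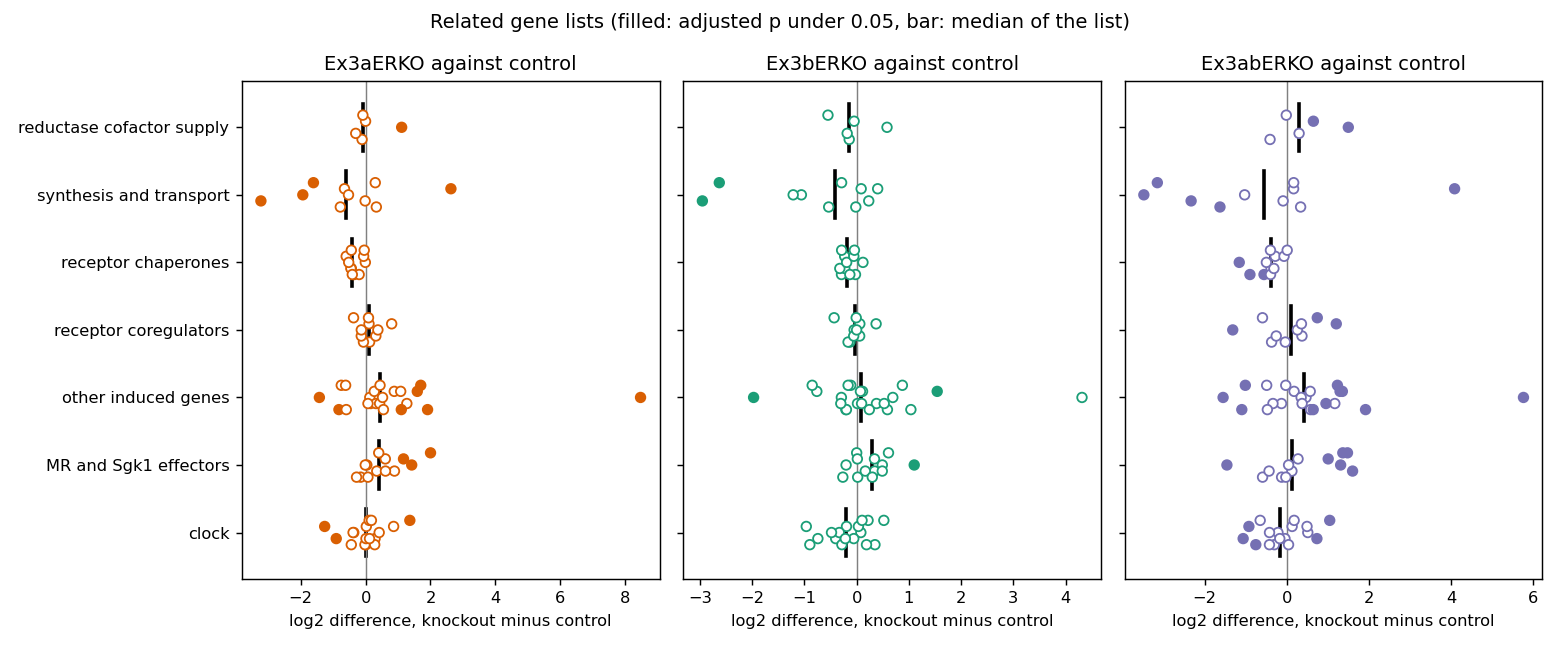
Log2 difference from control (horizontal axis) of each measured gene of the related lists, 1 panel per knockout, with a filled point for a gene called at adjusted p under 0.05 and a bar at the list's median. The glucocorticoid-induced genes lie on both sides of 0 in every panel, and the called chaperones of Ex3abERKO ovaries all lie below 0.

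The genes whose levels followed each of the 8 most closely over the 16 arrays are given as a description, since the arrays share groups and scaling. Hsd11b1 was followed by Lmbrd1 (Pearson r = 0.956), Slc10a6 (0.954) and complement C3 (0.944), and Tsc22d3 by Bcl10 (0.943) and Rap1a (0.936). Fkbp5 was followed by Star (0.957), Mrps34 (0.929) and Apol6 (0.926), and Sgk1 by Gask1b (0.934), Runx2 (0.907) and Epb41l1 (0.896). Hsd11b2 was followed by Syt7 (0.959), 1700093K21Rik (0.954) and Zbtb8b (0.941), Nr3c1 by Nptn (0.950), Tmem255a (0.945) and Tnfsf12 (0.940), Nr3c2 by Nkx6-3 (0.933), 1700011L22Rik (0.931) and Spatc1l (0.915), and Per1 by Ssh3 (0.860), Nbeal2 (0.857) and Gne (0.857). Ex3abERKO 3 was the lowest of the 16 arrays for Per1 (-0.19), Ssh3 (-3.23), Nbeal2 (-4.1) and Gne (-0.72). It was the highest for Nr3c1 (2.12), Nptn (4.35), Tmem255a (2.56), Tnfsf12 (-3.01), Tsc22d3 (4.17), Bcl10 (2.82) and Rap1a (4.7). No correlation was computed without this array, so how far they rest on it is not known. Among the 8 themselves, Hsd11b1 and Tsc22d3 had r = 0.81 over all arrays and 0.47 within groups, Nr3c1 and Tsc22d3 0.80 and 0.56, Fkbp5 and Sgk1 0.62 and 0.49, and Hsd11b1 and Hsd11b2 -0.56 and -0.62.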

How the data were processed

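Agilent single-colour arrays of 16 ovary samples (4 per genotype, placed by their titles) were used. The deposited values are spot intensity made by Agilent Feature Extraction, per the file headers, with background subtracted within each array (version 9.5, per the submitters' processing notes) and no scaling between arrays. Here each processed signal was divided by its array's 75th percentile over 43379 non-control spots, floored at -8.88 and taken to log2. Probes well above background on at least 4 of 16 arrays were kept (36224 of 41174), and a gene's brightest kept probe represented it. limma 3.58.1 (R 4.3.3; lmFit, eBayes) was fitted over all 16 arrays, with Benjamini-Hochberg adjustment over 24372 features, and was tested on simulated data. Differences of 2 probes within an array were tested by exact permutation. Slides 1 and 4 held 1 array of each genotype, slide 2 held 2 Ex3abERKO and no Ex3bERKO arrays, and slide 3 held 2 Ex3bERKO and no Ex3abERKO arrays. The members and gene lists were chosen with earlier results of these data known. All 8 genes are described whatever their values, with at most 4 called genes per list and comparison (lowest adjusted p), Cyp11b1, Cyp21a1, H6pd, Hsp90ab1, Per2 and Nr1d1 whatever theirs, and the 3 best correlated genes per member. A correlated gene and a luteal marker are not reported here. Esr1 and Esr2 were named as the targeted genes, and the Sgk3, Fkbp4 and H6pd levels as members of those lists. Alternatives changed the scaling, background correction, probe filter, probe choice, slide or replicate block, array weights and samples.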

Additional observations from a re-analysis of the deposited data

Results flagged for a closer look

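Single arrays stood apart from their group, by the gap between an extreme array and its nearest neighbour, in 4 of the 32 sets of 4 arrays (8 genes in 4 genotypes), where chance alone gives about 1 in 20. Ex3bERKO 2 had an Sgk1 level of 3.62, above the other 3 arrays of its group. Ex3abERKO 3 had a Tsc22d3 level of 4.17, above its group. The Nr3c1 level of Ex3aERKO 4 was 0.63, below its group, and that of control 1 was 0.80, below a group whose other 3 arrays lay between 0.87 and 0.88.

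The effect of losing ERβ differed between ovaries with and without ERα for 2 genes, by the interaction term of the limma fit. For Hsd11b2 the interaction was -2.35 (adjusted p = 0.00428) and for Sgk1 it was 2.85 (adjusted p = 0.00681). The Sgk1 term remained above 0 and called in each of the 28 alternatives, and the Hsd11b2 term was called in 27 of 28.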

How the results depend on the processing

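Over 1568 alternative values for single genes, 1492 kept their side of the threshold, 59 lost a call and 17 gained one. No called value changed sign (0), and 41 uncalled ones did. For Ex3abERKO against control ovaries no alternative moved the count of 5 called genes by over 1.5 times, and leaving out single arrays gave 5 to 6. Elsewhere the counts were less stable. With normexp background correction, which moved the median of all features against control to -0.34, -0.27 and -0.36 in Ex3aERKO, Ex3bERKO and Ex3abERKO ovaries (main values -0.08, 0.01 and -0.11), the count was 1 in place of 3 for Ex3aERKO against control, 1 in place of 2 for Ex3abERKO against Ex3aERKO, 3 in place of 5 for Ex3abERKO against Ex3bERKO and 1 in place of 2 for the interaction. Median scaling gave 3 in place of 5 for Ex3abERKO against Ex3bERKO, and the mean of all probes gave 1 in place of 2 for Ex3abERKO against Ex3aERKO. Fitting only the groups compared gave 1 for Ex3abERKO against Ex3bERKO and 1 for Ex3bERKO against control, where Sgk1 was lost (adjusted p = 0.0654). Without Ex3aERKO 2, Ex3abERKO 2 and control 4, which an earlier look had found rich in genes of liver, oviduct or red cells, the counts were 2 for Ex3abERKO against Ex3bERKO, 1 for Ex3aERKO against control and 1 for Ex3abERKO against Ex3aERKO. The calls lost there included Hsd11b1 (adjusted p = 0.177) and Sgk1 (adjusted p = 0.119) in Ex3aERKO against control and Fkbp5 in Ex3abERKO against Ex3aERKO (adjusted p = 0.113), and Nr3c1 in Ex3abERKO against control was lost as well (adjusted p = 0.0682). Without these and Ex3bERKO 2, a setting chosen after seeing the data, they were 1 for Ex3aERKO against Ex3bERKO and 1 for Ex3abERKO against Ex3aERKO. Single omitted arrays gave 0 to 2 for Ex3aERKO against Ex3bERKO, 1 to 4 for Ex3aERKO against control, 2 to 2 for Ex3abERKO against Ex3aERKO, 1 to 5 for Ex3abERKO against Ex3bERKO, 2 to 2 for Ex3bERKO against control and 2 to 3 for the interaction. The cause was not tested in any of these cases.

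Replicate numbers did not pair the arrays: of 24 same-numbered pairs, 7 had correlated deviations (r above 0.1), with r from -0.296 to 0.443. The 4 such pairs that also shared a slide had r from 0.224 to 0.443. With the replicate block the count was 4 in place of 5 for Ex3abERKO against Ex3bERKO, where Nr3c1 was lost (adjusted p = 0.0664), 0 for Ex3aERKO against Ex3bERKO, 3 for Ex3aERKO against control, 5 for Ex3abERKO against control, 2 for Ex3bERKO against control, 2 for Ex3abERKO against Ex3aERKO and 2 for the interaction. With slide as a fixed block Sgk1 was also called lower in Ex3abERKO than in control ovaries (adjusted p = 0.0352), while Sgk1 (1.12, adjusted p = 0.0772) and Tsc22d3 (0.74, adjusted p = 0.152) were lost in Ex3abERKO against Ex3bERKO, the groups that are unevenly spread over slides 2 and 3.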

Other observations

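Clock genes, among which Per1 belongs, were read from a list of 17. In Ex3aERKO ovaries 1 was called higher and 2 lower, in Ex3bERKO ovaries 0 were called, and in Ex3abERKO ovaries 2 were higher and 3 lower, with median log2 differences from control of 0.02, -0.19 and -0.17. Of all features, 8.05%, 1.04% and 22.3% were called in the same order, so the counts alone do not set the clock genes apart. Nr1d1, the repressor that closes the second loop of the clock, fell by 0.91 in Ex3aERKO ovaries (adjusted p = 0.0375) and fell by 1.06 in Ex3abERKO ovaries (adjusted p = 0.00722), and its difference in Ex3bERKO ovaries was -0.74 (adjusted p = 0.245). Dbp, a clock output factor, fell by 1.26 in Ex3aERKO ovaries (adjusted p = 0.00541) and fell by 0.92 in Ex3abERKO ovaries (adjusted p = 0.0135). Hlf, of the same family of factors, rose by 1.36 and 1.05 in these genotypes (adjusted p 0.00625 and 0.0119). Per2, the closest relative of Per1, differed by 0.86, 0.03 and 0.49 in Ex3aERKO, Ex3bERKO and Ex3abERKO ovaries and was not called (adjusted p 0.121, 0.997 and 0.309). The labels used here give no hour of collection, so time of day cannot be compared between the groups.

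Immediate early genes, which share rapid induction with Sgk1, Per1 and Dusp1, were called in both directions. Of 12, 1 was lower in Ex3aERKO ovaries, 0 were called in Ex3bERKO ovaries, and 3 were higher and 2 lower in Ex3abERKO ovaries. The stress factor Atf3 rose by 2.25 (adjusted p = 0.00261) and the zinc finger factor Egr2 by 1.37 (adjusted p = 0.0115) in Ex3abERKO ovaries. Myc, the growth-promoting factor, fell by 1.31 in Ex3aERKO ovaries (adjusted p = 0.000789) and fell by 0.80 in Ex3abERKO ovaries (adjusted p = 0.00687).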
